A study of Mus musculus with 2 samples.

Results

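The 10 osteoclast genes described here cover the receptors, fusion proteins, acid secretion machinery and matrix-degrading enzymes of the bone-resorbing cell: Tnfrsf11a, Oscar, Calcr, Dcstamp, Ocstamp, Atp6v0d2, Slc9b2, Acp5, Ctsk and Mmp9. They were chosen by gene symbol, with earlier results of these data known. Every probe whose platform annotation carried one of these symbols was taken. This gave 13 of 45281 probes, or 10 of the 19057 genes that had a named probe. Messenger RNA was measured in bone marrow from the femora of mice aged 8 days, with 1 Illumina MouseWG-6 v2.0 bead array of wild type marrow and 1 of Dnmt2-/- marrow. Dnmt2, whose gene symbol is Trdmt1, is a methyltransferase of transfer RNA, and the series concerns blood formation in mice that lack it. The labels give neither the design of the Dnmt2 allele nor the number or sex of the animals behind each RNA.

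Osteoclasts are large multinucleated cells that form by fusion of precursors of the monocyte lineage. The cytokine RANKL, encoded by Tnfsf11 and made by bone and cartilage cells, binds the receptor RANK on these precursors, while osteoprotegerin, encoded by Tnfrsf11b, is a decoy receptor that takes RANKL away. Signalling from RANK and from co-receptors that act through the adaptors Tyrobp and Fcer1g induces the transcription factor Nfatc1, which together with AP-1, Mitf and PU.1 turns on the genes of the mature cell. That cell seals itself to bone, pumps out protons that dissolve mineral, and secretes proteases that digest the collagen left behind. Growing long bones of young mice hold osteoclasts at the border of the growth plate and the marrow.

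Levels are the deposited signal of a probe in intensity units, with the background still in it, and summed levels of a list are of normalized intensities. The arrays are named by their labels, wt for wild type and Dnmt2 for Dnmt2-/-, and pairs of values give the wt-labelled array first. Ratios are of the Dnmt2-labelled over the wt-labelled array, as log2 differences after background correction and quantile normalization, or as folds. Detection means a detection p-value under 0.01. Since each genotype had 1 array, no replicate error could be estimated and no test was run, so every difference describes these 2 arrays rather than the genotypes. In whole marrow, a different number of cells of a type and a different amount of RNA per cell cannot be told apart.

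At the arrays' level, 41.4% of probes were detected on the wt-labelled array and 43.2% on the other, and the fitted background was 90.9 (SD 3.16) and 94.9 (SD 3.43). Of 4 Trdmt1 probes, 3 were higher on the Dnmt2-labelled array, by 1.53-fold, at least 1.53-fold and at least 1.58-fold, and 1 was 1.21-fold lower. Both bounds are from probes detected on that array alone, which fixed their direction. The probes were dim, at 84.1 to 112 on the wt-labelled array and 108 to 149 on the other. Those detected on both arrays differed in direction, so at these signals the transcript did not bear out the genotype labels. Whether the 4 probes lie inside the deleted part is not known here. Xist was lower on the Dnmt2-labelled array, by at least 38.3-fold as processed here and by bounds from 8.99 to 40.0 where the other settings used its same probe. Y-linked Eif2s3y was at least 16.7-fold higher in its brightest probe, with bounds from 4.41 to 66.1 for that probe. Its other probe, also detected on the Dnmt2-labelled array alone, had a bound of 0.17 on the log2 scale. That bound was 1.03-fold in the authors' values, which hold no value for the brighter probe. Of the other Y-linked genes, Kdm5d was at least 1.71-fold higher (bounds from 1.16 to 3.94) and Uty was detected on both arrays at 0.02. Genotype and sex-linked signal cannot be told apart. Transcripts of marrow blood cells were bright on both arrays. The red cell gene Hba-a1 gave 20233 and 20851, and the neutrophil gene S100a8 gave 16781 and 17956.

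Of the 10 osteoclast genes, 7 were detected on both arrays, Ocstamp on the Dnmt2-labelled array alone, and Atp6v0d2 and Calcr on neither. All 8 detected genes were higher on the Dnmt2-labelled array, where 49.6% of the 11438 genes detected on at least 1 array had a ratio above 1. Of the 8, 5 were at least 1.5-fold higher, beside 7.39% of all detected genes, and 4 were at least 2-fold higher, beside 1.22%. None was at least 1.5-fold lower, beside 5.95% of all detected genes, or at least 2-fold lower, beside 0.595%. Their median log2 ratio was 0.91, or 1.02 over the 7 detected on both arrays, while the medians over all genes were 0 and -0.02. Ocstamp counts as detected only through the array where it is high, so its direction was fixed by that criterion.

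**Figure D1:**
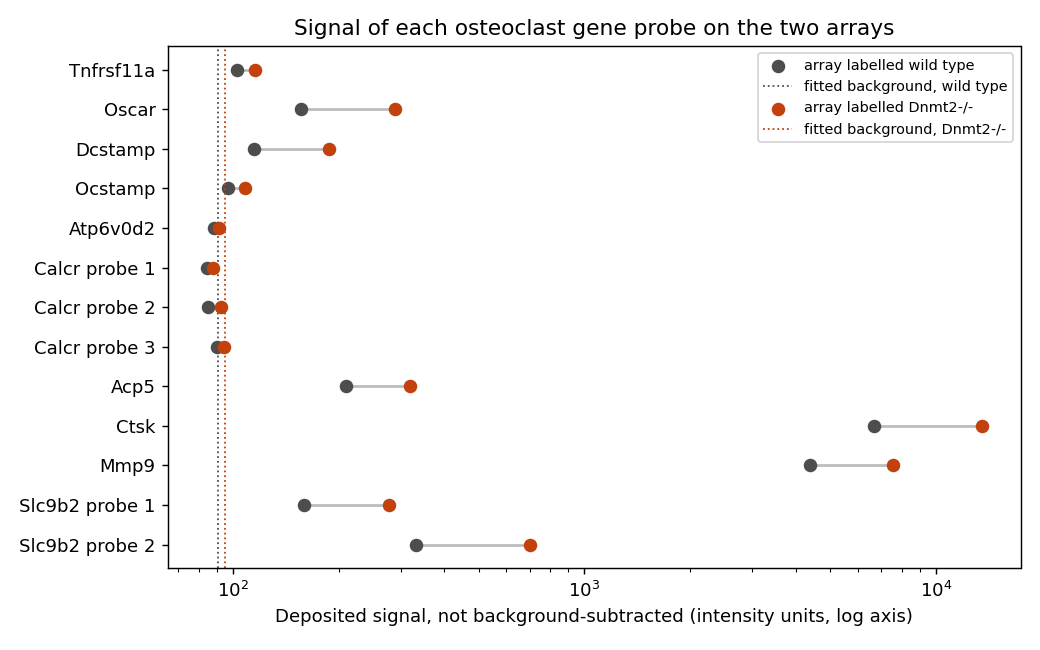
Deposited signal of each of the 13 probes (horizontal log axis, intensity units) on the wt-labelled array (grey) and the Dnmt2-labelled array (orange), with dotted lines at the fitted background of each array. Ctsk and Mmp9 lie far to the right of both backgrounds, Tnfrsf11a and Ocstamp close to them, and Atp6v0d2 and the 3 Calcr probes at or below them.

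The proximal promoters of these genes give the sequence context in which the factors named above could be looked for. The RefSeq promoter table (GRCm38.p6) matched 6 of the 10 genes, with 9 start sites between them, and the 250 bases before each start were searched on both strands. The letters searched were GGAAA for the NFAT core, TGANTCA for AP-1, TCANNTGA for the Mitf E-box and GAGGAA for PU.1, where a PU.1 match followed by A also holds an NFAT core. The windows of 3 genes whose ratio was at least 2-fold are shown, with that of Tnfrsf11a, whose ratio was near 1, and capitals mark every match. The Ctsk window is chr3:95498960-95499209 on the plus strand, and the Slc9b2 window is chr3:135307450-135307699 on the plus strand. The Oscar window is chr7:3616158-3616407 on the minus strand, and the Tnfrsf11a window is chr1:105780473-105780722 on the plus strand.
Ctsk: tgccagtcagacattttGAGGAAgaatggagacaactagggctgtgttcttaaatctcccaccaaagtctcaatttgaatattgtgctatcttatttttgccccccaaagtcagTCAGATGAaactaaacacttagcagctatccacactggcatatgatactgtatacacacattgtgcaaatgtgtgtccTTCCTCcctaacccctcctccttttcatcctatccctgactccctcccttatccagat
Oscar: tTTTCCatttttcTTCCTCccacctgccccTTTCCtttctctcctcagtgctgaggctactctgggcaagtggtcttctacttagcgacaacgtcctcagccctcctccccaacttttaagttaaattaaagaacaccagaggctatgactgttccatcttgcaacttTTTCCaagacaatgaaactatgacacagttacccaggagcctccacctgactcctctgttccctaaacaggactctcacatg
Slc9b2: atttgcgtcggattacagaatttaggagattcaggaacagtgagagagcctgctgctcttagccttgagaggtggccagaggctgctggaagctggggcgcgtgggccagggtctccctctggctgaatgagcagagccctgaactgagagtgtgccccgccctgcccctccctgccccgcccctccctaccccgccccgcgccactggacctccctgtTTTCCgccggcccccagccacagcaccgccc
Tnfrsf11a: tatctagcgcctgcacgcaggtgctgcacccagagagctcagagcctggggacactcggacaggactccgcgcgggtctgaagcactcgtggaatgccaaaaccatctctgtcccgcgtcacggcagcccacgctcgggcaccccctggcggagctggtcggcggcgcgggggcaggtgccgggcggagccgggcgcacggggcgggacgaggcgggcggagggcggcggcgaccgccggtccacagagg

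The Ctsk window held 1 Mitf E-box and 2 PU.1 matches, the Oscar window 3 NFAT cores and 1 PU.1 match, the Slc9b2 window 1 NFAT core, and the Tnfrsf11a window none of the 4. Over the members' 9 windows, 6 held an NFAT core, where 55.6% of 32851 mouse promoter windows of the same length did. A PU.1 match was found in 2 of 9, beside 23.3% of all windows, and a Mitf E-box in 2 of 9, in Ctsk and in 1 of 3 Acp5 starts, beside 7.09%. No window held AP-1, which 6.75% of all windows did. These are matches of letters in a short window and do not show binding.

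Among the receptors, Oscar stood out and Tnfrsf11a did not. Oscar, a collagen-binding co-receptor that signals through Fcer1g, gave a signal of 157 on the wt-labelled array and 289 on the Dnmt2-labelled array. Its log2 ratio was 1.03 (2.05-fold higher), and 83 of the 9746 genes detected on both arrays had a higher one. Oscar lay 20.8 background SDs above background on the wt-labelled array and 56.4 on the other. Tnfrsf11a, which encodes RANK itself, gave 103 and 116. It was detected on both arrays but only 3.81 and 6.03 background SDs above background, and its log2 ratio of 0.21 (1.15-fold) was exceeded by 2545 genes. Calcr, the calcitonin receptor through which calcitonin restrains resorption, was not detected by any of its 3 probes. Their signals were 84.5, 85.2 and 90.1 on the wt-labelled array and 87.7, 92.7 and 94.5 on the other, all below the fitted background of their array. No ratio is given for Calcr, and its level was not measurable at this signal over background.

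The fusion genes were dim on both arrays. Dcstamp encodes a membrane protein that precursors need in order to fuse. It gave 115 on the wt-labelled array and 188 on the Dnmt2-labelled array, a log2 ratio of 1.14 (2.21-fold). It lay 7.62 background SDs above background on the first array and 27.2 on the second, and its fold varied with the treatment of background. It was 1.44-fold without background correction and 2.91-fold with no offset added. Its partner in fusion, Ocstamp, gave 97.0 with a detection p-value of 0.0532 on the wt-labelled array and 108 with 0.00327 on the other. It was at least 1.22-fold higher on the Dnmt2-labelled array, a bound that ran from 1.05 to 1.72 over 9 settings. Atp6v0d2, an osteoclast form of a proton pump subunit that also takes part in fusion, gave 88.2 and 91.3, below background on both arrays, and no ratio is given.

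Slc9b2 and Acp5 represent ion transport and the acid phosphatase. Slc9b2 encodes a sodium-proton exchanger of the osteoclast and has 2 probes. The brighter probe gave 332 on the wt-labelled array and 698 on the Dnmt2-labelled array, a log2 ratio of 1.02 (2.03-fold). The dimmer probe gave 159 and 279, a log2 ratio of 0.92 (1.89-fold). Both probes were higher on the Dnmt2-labelled array, and they differed from each other by less than the SD of 0.29 between probes of a gene, taken over 3375 genes. Acp5 encodes tartrate-resistant acid phosphatase, the enzyme stained to count osteoclasts. It gave 209 and 320, a log2 ratio of 0.52 (1.44-fold), which was exceeded by 802 of 9746 genes and fell short of 1.5-fold.

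The matrix-degrading enzymes Ctsk and Mmp9 lay far above background on both arrays. Ctsk encodes cathepsin K, the protease that cleaves bone collagen in the acid space under the osteoclast. It gave 6683 on the wt-labelled array and 13500 on the Dnmt2-labelled array, a log2 ratio of 1.05 (2.07-fold), with 76 of 9746 genes higher. Among the 2860 brightest of the detected genes, 99.4% had a lower ratio than Ctsk and 0.804% were at least 2-fold higher. Its fold moved little, from 1.92 to 2.13 over 9 settings. Mmp9, a gelatinase of osteoclasts and of neutrophils, gave 4373 and 7526, a log2 ratio of 0.80 (1.74-fold), with 256 genes higher and a range of 1.61 to 1.75.

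Mmp9 was set beside the neutrophil list because neutrophils fill the marrow. Of 17 detected neutrophil markers, 14 were lower and 3 higher on the Dnmt2-labelled array. None was at least 1.5-fold higher, beside 7.39% of all detected genes, and 2 were at least 1.5-fold lower, beside 5.95%. Mmp8 counted as detected only through the wt-labelled array and Padi4 only through the other, which fixed their directions. Of the 15 detected on both arrays, 13 were lower and 2 higher. The median log2 ratio of the 17 markers was -0.23 (-0.24 to -0.12 over the settings). Their summed normalized intensity was 118261 on the wt-labelled array and 107076 on the other. The largest differences in the list were in Pglyrp1 and Csf3r. Pglyrp1, a bactericidal protein, was 1.72-fold lower, with another probe at 0.14 on the log2 scale. Csf3r, the receptor for the granulocyte growth factor, was 1.70-fold lower, and 1.38-fold lower in another probe. Mmp9 was higher where most neutrophil markers were lower, and the part of neutrophils in its value was not tested. Without Mmp9 the median of the osteoclast genes was 1.02. Of those 7, 4 were at least 1.5-fold higher, beside 7.39% of all detected genes.

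**Figure D2:**
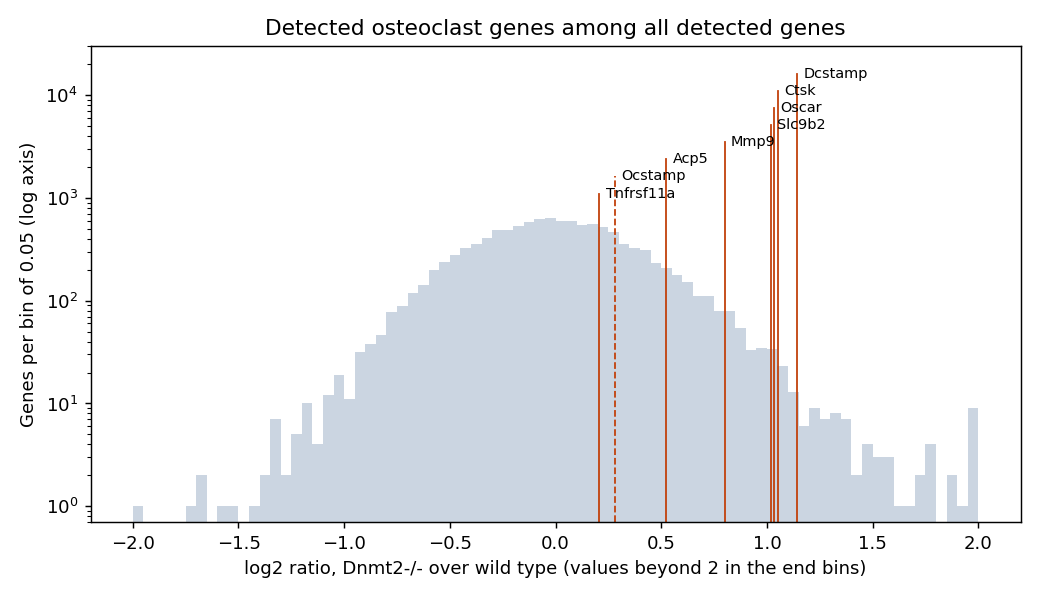
Histogram of the log2 ratio of 11438 genes detected on at least 1 array (grey, log vertical axis in genes per bin), with vertical lines at the 8 detected osteoclast genes, dashed for the bound of Ocstamp; line heights only separate the names. Slc9b2, Oscar, Ctsk and Dcstamp lie between 1.02 and 1.14 in the right tail, while Tnfrsf11a at 0.21 lies within the bulk.

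In the setting used here 4 members were close together. Dcstamp, Ctsk, Oscar and Slc9b2 spanned 0.13 on the log2 scale, less than the SD of 0.29 between probes of a gene, so their order is not resolved. The step from Slc9b2 to Mmp9 was 0.22 and that from Mmp9 to Acp5 was 0.28, also within that SD. The step from Acp5 to Tnfrsf11a was 0.32. That SD is a spread of single ratios within a gene and not of steps between genes, so it does not show any step to be resolved. Over the 7 genes the SD was 0.34, and over all 9746 genes detected on both arrays it was 0.38. Mmp9, Slc9b2, Oscar, Ctsk and Dcstamp lay above 0.65, the 95th percentile of those genes.

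Direction held over the settings tried, while size did not. All 8 detected genes had a ratio above the median of all genes in each of 9 settings. The settings differ in background correction, scaling, detection threshold, choice of probe and the use of the authors' processed values. Ocstamp enters as a bound that could not fall below 0, so only the 7 genes detected on both arrays could have reversed. Median scaling moved the median of all genes by 0.15 on the log2 scale and the share of higher among all genes past 1.5-fold from 55.4% to 84.0%. Relative to that shift, Tnfrsf11a was at 0.17, Ctsk at 0.80 and Dcstamp at 1.23. Oscar ran from 1.57-fold to 2.45-fold, Slc9b2 from 1.81 to 2.30, Acp5 from 1.29 to 1.71 and Tnfrsf11a from 1.04 to 1.34. The count at or past 2-fold was 0 of 8 in the authors' processed values, where 0.233% of all genes passed it in the same direction. The count past 1.5-fold stayed between 4 and 6 of 8 in all 9 settings, while the share of all genes did not stay constant. It was 4 without background correction, where 1.68% of all genes passed in the same direction. With median scaling it was 6, beside 13.9% of all genes, and with no offset 6, beside 15.8%.

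**Figure D3:**
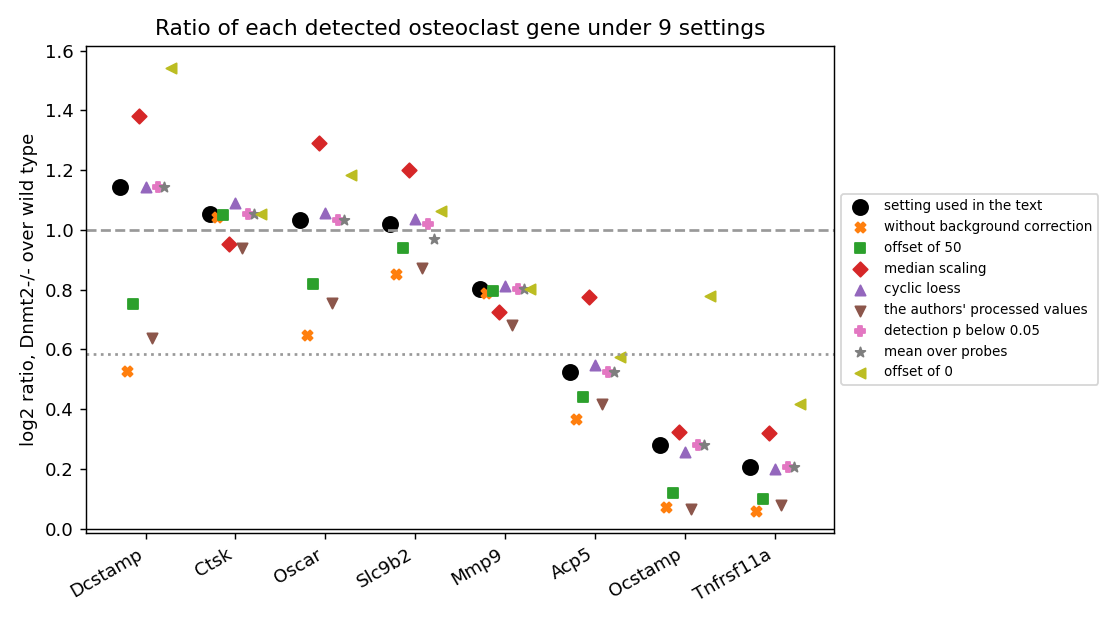
log2 ratio (vertical axis) of each detected osteoclast gene under 9 settings, 1 symbol per setting, with dotted and dashed lines at 1.5-fold and 2-fold; the Ocstamp values are bounds. Ctsk and Mmp9 vary little, from 1.92-fold to 2.13-fold and from 1.61-fold to 1.75-fold, while Dcstamp runs from 1.44-fold to 2.91-fold.

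The signals that start osteoclast formation were measured next to their target genes. Tnfsf11, which encodes RANKL, gave 128 and 171, a log2 ratio of 0.48 (1.40-fold higher on the Dnmt2-labelled array). Its decoy receptor gene Tnfrsf11b was not detected on the wt-labelled array, at 93.6, and gave 145 on the other, a difference of at least 2.81-fold that ran from 1.40 to 8.47 over the settings. Csf1, the growth factor that keeps precursors alive, was at -0.19, and ran from -0.26 to 0.06 over the settings. Of 6 detected ligands and decoy receptors 3 were higher and 3 lower, with a median of 0.05 (-0.01 to 0.21 over the settings). Tnfrsf11b alone passed 1.5-fold, beside 7.39% of all detected genes that were higher by as much. Its direction was fixed by detection on the Dnmt2-labelled array alone. Of the 5 detected on both arrays, 2 were higher and 3 lower.

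Genes of the precursor stage went both ways. Of 16 detected receptors, adaptors and kinases, 10 were lower and 6 higher on the Dnmt2-labelled array, with a median of -0.14. Tyrobp, the adaptor known as DAP12, was 1.56-fold lower, from 1814 to 1273. Tec, a kinase downstream of RANK, was 1.78-fold higher, and the inhibitory receptor gene Lilrb4a 1.58-fold higher. Csf1r, the receptor for Csf1, was at 0.20 with 0.18 in another probe. The median of this list crossed 0 over the settings, from -0.19 to 0.11.

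Among 15 detected transcription factors that drive osteoclast formation, 10 were higher and 5 lower, with a median of 0.16. Myc counted as detected only through the Dnmt2-labelled array, which fixed its direction. Of the 14 detected on both arrays, 9 were higher and 5 lower, with a median of 0.14. Nfatc1, the master regulator, was at 0.22 in its brightest probe. Other probes detected on both arrays were at 0.12, 0.44 and 0.52. A bound of 0.44 came from a probe detected on the Dnmt2-labelled array alone, which fixed its direction. Fos was 2.03-fold higher, from 124 to 202. Fosl2 was 1.82-fold higher in its brightest probe and at -0.11 in another. Jund was 1.91-fold lower, from 177 to 146, and Spi1, which encodes PU.1, was 1.70-fold lower, from 207 to 177. Over the settings the folds higher ran from 1.42 to 2.46 for Fos and from 1.30 to 2.09 for Fosl2. The folds lower ran from 1.40 to 2.25 for Jund and from 1.37 to 1.86 for Spi1. Mitf was not detected on either array. Of 10 detected inhibitors of osteoclast formation, 4 were higher and 6 lower, with a median of -0.07 that ran from -0.07 to 0.12 over the settings. Those past 1.5-fold, all higher and beside 7.39% of all detected genes, were Tnfrsf11b, Bcl6 (1.60-fold) and Lilrb4a. Bcl6 is a repressor that acts on osteoclast genes. Tnfrsf11b counted only through the Dnmt2-labelled array, and of the 9 inhibitors detected on both arrays 3 were higher and 6 lower.

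Acid secretion genes outside the 10 went the same way as the mature genes. All 12 were detected on both arrays and higher on the Dnmt2-labelled array, with a median log2 ratio of 0.45 (0.36 to 0.64 over the settings), and 4 of 12 were at least 1.5-fold higher, beside 7.39% of all detected genes. Tcirg1, the osteoclast form of a membrane subunit of the proton pump, gave 479 and 910. This was 1.76-fold higher, and another probe detected on both arrays was at 0.43 on the log2 scale. Its remaining probes gave bounds of 0.28 and 0.69. They were detected on the Dnmt2-labelled array alone, which fixed their direction. Snx10, a sorting protein needed for the resorbing membrane, gave 660 and 1219 (1.71-fold). Slc37a2, a sugar phosphate transporter, was 1.66-fold higher, and the pump subunit gene Atp6v1b2 1.60-fold higher. Clcn7, the chloride-proton exchanger that balances the charge of the pump, was at 0.53, and Car2, carbonic anhydrase, which supplies the protons, at 0.30 with 0.05 in another probe. Car2 is also abundant in red cell precursors. Another list held subunits and accessory proteins of the proton pump other than Atp6v0d2. It shares Tcirg1, Atp6v1b2, Atp6v1a, Atp6v1c1 and Atp6ap1 with the one before. Its 19 detected genes had a median of 0.22, with 17 of 19 higher, beside 49.6% of all detected genes. The 2 at least 1.5-fold higher, beside 7.39%, were Tcirg1 and Atp6v1b2, both shared with the list before. Atp6v0e2 counted only through the Dnmt2-labelled array, and 16 of the 18 detected on both arrays were higher.

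Fusion genes outside the 10 did not reach 1.5-fold in either direction, beside 7.39% of all detected genes higher and 5.95% lower. Of 10 detected, 7 were higher and 3 lower, with a median of 0.16. Matrix degradation genes outside the 10 had a median of 0.16 over 13 detected, with 9 higher, and 4 at least 1.5-fold higher, beside 7.39% of all detected genes. These were the collagenase Mmp13 (2.10-fold, with log2 ratios of 0.73 and 2.06 in its other probes), the gelatinase Mmp2 (1.74-fold), the membrane-bound protease Mmp14 (1.68-fold) and the protease inhibitor Timp1 (1.60-fold). Mmp13 is known as a product of bone and cartilage cells, and Mmp2 and Mmp14 are also made by stromal cells.

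**Figure D4:**
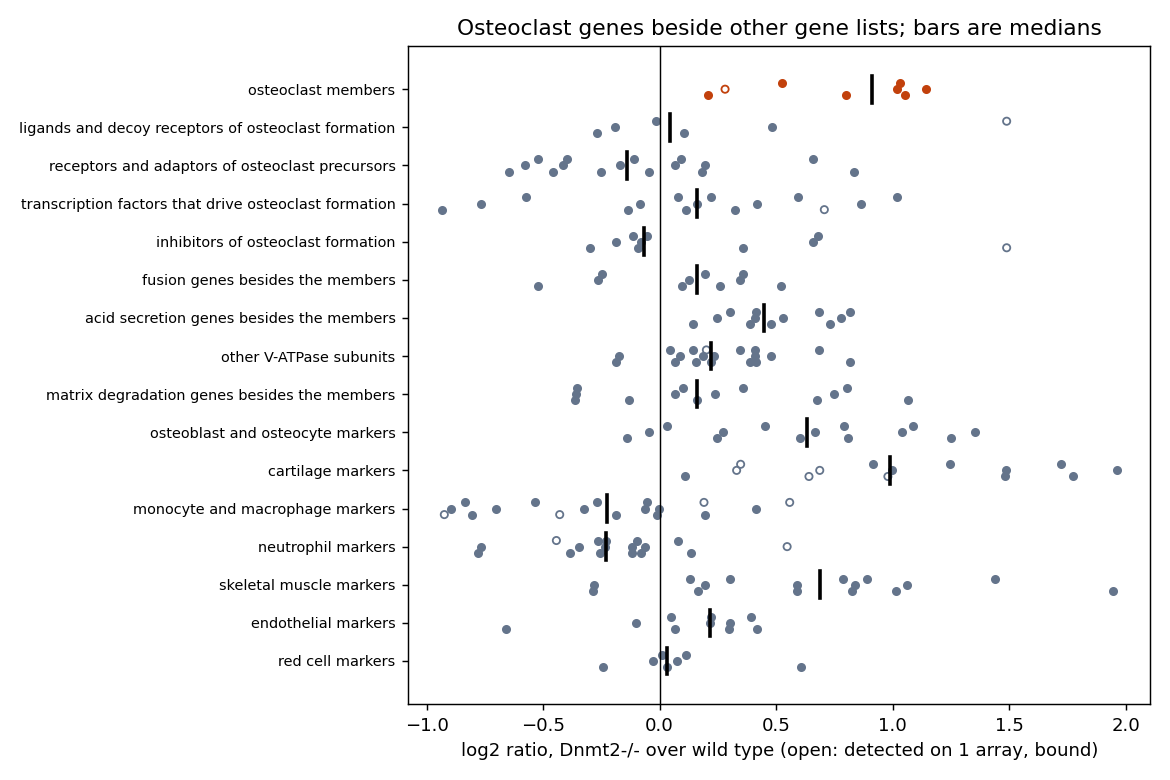
log2 ratio (horizontal axis) of each detected gene in the osteoclast list (orange, top) and 15 other lists (grey), with black bars at the medians and open circles for genes detected on 1 array, which are bounds. The osteoclast genes (median 0.91), cartilage (0.99), muscle (0.69), bone (0.63) and acid secretion (0.45) lists lie to the right of 0, and the neutrophil and macrophage lists (-0.23 each) to the left.

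Most detected markers of cartilage, bone and skeletal muscle were also higher on the Dnmt2-labelled array. Of 14 detected cartilage markers, 5 counted as detected only through the Dnmt2-labelled array, so their direction was fixed by that criterion. The 9 detected on both arrays were all higher on the Dnmt2-labelled array, 8 by at least 1.5-fold, beside 7.39% of all detected genes, with a median of 1.48. Over all 14 the median was 0.99, and it ran from 0.45 without background correction, where that of the osteoclast genes was 0.59, to 1.54 with no offset. Their summed intensity was 1024 and 3055. Col2a1 was 3.90-fold, Comp 3.43-fold, Snorc 3.30-fold and Col10a1 2.81-fold higher. Other probes were 4.90-fold and 4.57-fold higher for Col2a1 and 1.61-fold higher for Comp. Of 14 detected bone markers 12 were higher, 8 by at least 1.5-fold, beside the same 7.39%, with a median of 0.63 (0.50 to 0.68 over the settings) and a summed intensity of 36575 and 46142. Ibsp was 2.55-fold (2.35-fold and 2.25-fold in other probes), Panx3 2.38-fold, Col1a2 2.12-fold and Phex 2.06-fold higher. The lower genes were the brightly measured osteocalcin genes Bglap, which gave 8734 and 7885 (log2 ratio -0.05, and -0.34 in a dimmer probe), and Bglap2, which gave 14300 and 12239 (-0.14). Of 16 detected muscle markers 14 were higher, 10 by at least 1.5-fold, again beside 7.39%, with a median of 0.69 (0.60 to 0.85 over the settings) and a summed intensity of 9477 and 17199. Mb was 3.86-fold, Tcap 2.72-fold, Mylpf 2.09-fold and Myl1 2.02-fold higher in their brightest probes. Other probes were 1.70-fold higher for Mb, 1.84 for Tcap, 1.51 for Mylpf, and 2.97 and 1.45 for Myl1. The summed intensity of the 8 detected osteoclast genes was 11560 and 22395, most of it from Ctsk and Mmp9. Not every marker of these tissues was detected: Matn3, Ucma, Cnmd and Epyc of cartilage and Dmp1 and Postn of bone were at background on both arrays. The part of such tissue in the osteoclast values was not tested.

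Macrophages share the precursors of osteoclasts and also express Acp5. Most of the detected monocyte and macrophage markers were lower on the Dnmt2-labelled array, and the part of such cells in the osteoclast values was not tested. Of 18 detected monocyte and macrophage markers 14 were lower on the Dnmt2-labelled array, 5 by at least 1.5-fold, beside 5.95% of all detected genes, and none was at least 1.5-fold higher. Cd163 and Siglec1 counted as detected only through the wt-labelled array, and Ccr2 and Vsig4 only through the other, which fixed their directions. Of the 14 detected on both arrays, 12 were lower, 4 by at least 1.5-fold. The 2 higher ones were Cd14, at 0.42 on the log2 scale, and Csf1r, at 0.20. Over the 18 markers the median was -0.23 (-0.39 to -0.08 over the settings) and the summed intensity 12953 and 11590. Adgre1 was 1.86-fold (1.52-fold in another probe), C1qc 1.79-fold and Clec4n 1.75-fold lower. Cd163, at 111 and 99.3 in signal, was lower by at least 1.90-fold as processed here, a bound that ran from 1.20 to 4.92 over the settings. Red cell markers had a median of 0.03 over 7 genes, on either side of 0 depending on the setting, with Klf1 1.52-fold higher, and endothelial markers 0.22 over 10, with Eng 1.58-fold lower.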

How the data were processed

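Per the labels' protocols, Trizol RNA was amplified into biotinylated cRNA for the bead arrays, 1 array per genotype. The deposited signal intensity was linear and not background-subtracted, per the file headers and values. The authors deposited a detection p-value next to each signal. They also deposited processed intensities, linear, with medians of 101.8 and 101.1 and 1071 blank probes per array. Their normalization method is not stated in the labels or files. Their rank correlations with the signal of the same array were 0.9998 and 0.99999, and they served as an alternative.

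Background was corrected with normexp in limma 3.58.1 (R 4.3.3), inferred from the detection p-values, with an offset of 16, log2 and quantile normalization. The offset shrinks folds of dim genes. In the platform annotation 34885 probes had 1 symbol, 18 several and 10378 none. Entrez identifiers of 34807 were in RefSeq (GRCm38.p6), and 0 symbols changed. A gene took its probe of highest mean. For a gene detected on 1 array, the dim side was raised to the lowest normalized value of any detected probe where it lay under that, giving "at least N-fold". No median is given for under 5 detected genes.

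The members and lists were chosen with earlier results of these data known. Named are all members, up to 4 genes past 1.5-fold per list, and Tnfsf11, Tnfrsf11b, Csf1, Csf1r, Nfatc1, Tcirg1, Clcn7, Car2, Trdmt1 and sex-linked genes. Mitf, Myc, Atp6v0e2, Hba-a1, S100a8, Mmp8, Padi4, Bglap, Bglap2, Cd14, Siglec1, Ccr2, Vsig4 and undetected markers were named after their values were seen. Steps were tested on simulated data. Alternatives were no background correction, an offset of 50, median scaling, cyclic loess, the authors' values, detection at 0.05, mean over probes, leaving out Mmp9 and, added after seeing the data, an offset of 0.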

Additional observations from a re-analysis of the deposited data

How the results depend on the processing

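No paired analysis was possible because each genotype has 1 array, and no replicate could be left out for the same reason. A value is called moved here when it shifted by more than the SD of 0.29 between probes of a gene, or a count by more than 1.5 times. The median of the osteoclast genes was 0.59 without background correction, against 0.91, and stayed between 0.66 and 1.02 in the other alternatives. The count at least 2-fold higher, 4 as reported, was 1 without background correction, 1 with an offset of 50 and 0 in the authors' processed values. The smaller folds without background correction and with the larger offset follow from the constant added to both arrays, and for the authors' values the cause was not tested. No ratio or median of a list or named gene past 0.29 changed sign. Over all genes, those at least 1.5-fold higher numbered 845, but 192 without background correction, 311 with an offset of 50, 225 in the authors' values, 1595 with median scaling and 1799 with no offset. Those lower numbered 680, and 106, 194, 121, 304 and 1591 in the same settings. At 2-fold the counts higher and lower were 139 and 68 as reported, 30 and 5 without background correction, 47 and 13 with an offset of 50, 309 and 25 with median scaling, 26 and 5 in the authors' values, 109 and 46 with the mean over probes, and 841 and 704 with no offset. Of these calls 67.1% were higher as reported, and 85.7%, 78.3%, 92.5%, 83.9%, 70.3% and 54.4% in the same settings. Signal over background limits Tnfrsf11a, Ocstamp, Atp6v0d2 and Calcr.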
